A study of Mus musculus with 36 samples.

Results

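Ankrd37, Ndrg1, Egln3, Adm, Vegfa, Bnip3, Slc2a1, Pdk1, Ldha and Pfkfb3 are genes that cells switch on at low oxygen or use to run glycolysis. These 10 genes were taken by symbol from the 37561 gene entries of the deposited tables, and each symbol matched 1 entry in all 6 tables. Ndrg1 was included because its difference between the lines changes direction between days 0 and 5, so those 2 days of Ndrg1 are given as a description with no test. The cells are AB2.2, a mouse embryonic stem cell line, either as the control or with the long noncoding RNA gene LncCPR deleted. Both lines were sampled undifferentiated in the presence of leukemia inhibitory factor (day 0), and as whole embryoid bodies at days 3, 5, 8, 10 and 12 after that factor was withdrawn and hanging drops were set up. There are 3 libraries for each of the 12 combinations of line and day, 36 libraries in all.

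The deletion was made with Cas9 and a pair of guides on either side of the gene, and carriers were grown from singly sorted cells. How many such lines lie behind the 18 knockout libraries is not stated, so traits of a single clone and the effect of the deletion cannot be told apart. The labels give replicate numbers but do not say that replicates were separate cultures. The p-values below therefore measure the spread between these libraries, which may be technical. An embryoid body mixes cell types, and in such bulk RNA fewer cells of a type and less RNA per cell cannot be told apart. No oxygen tension is given for any group, and the aggregates and the flat day 0 cultures differ in form as well as in day.

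Hypoxia-inducible factors (HIFs) are transcription factors made of an oxygen-labile alpha subunit, such as Hif1a or Epas1, and a stable partner, Arnt. With oxygen present, the prolyl hydroxylases Egln1, Egln2 and Egln3 mark the alpha subunit, the Vhl complex recognises the mark, and the protein is degraded. At low oxygen the subunit lasts and binds short DNA cores near genes for vessel growth, glucose uptake, glycolysis and mitochondrial turnover. Because the switch acts on the protein, the mRNA of Hif1a need not follow HIF activity. Pluripotent cells and early embryos also run glycolysis at a high rate in the presence of oxygen, so several of these genes are abundant in embryonic stem cells without low oxygen.

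The HIF core is usually written as ACGTG or GCGTG, and the promoters were searched for both. RefSeq promoters (GRCm38.p6) matched 9 of the 10 genes, Ankrd37, Egln3, Adm, Vegfa, Bnip3, Slc2a1, Pdk1, Ldha and Pfkfb3, in 13 windows, since 4 genes have a pair of annotated starts. Only the 250 bases before each start were searched, on both strands. Of all 32851 such windows, 16.6% held ACGTG, 28.2% held GCGTG and 38.6% held either. Of the 13 windows here, 8 held ACGTG, 8 held GCGTG and 11 held either. Each of the 9 genes had at least 1 window with a match, while window 2 of Vegfa and window 2 of Pdk1 had none. For Vegfa, window 2 is the one before the start of the whole gene. Window 1 (chr17:46025164-46025413) lies inside the gene, and Vegfa exon covers all of the 42 bases that hold its 2 matches. The letters CACGTG read the same on both strands and count once on each. A match describes the letters only, and no binding was measured.

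Excerpts are shown for the 5 genes with a promoter in the table that were lower in the knockout at day 0 (Slc2a1, Egln3, Ankrd37, Pdk1 and Adm), and for Bnip3 and Ldha, whose windows held the most matches, 5 each. Each is written 5′ to 3′ in the direction of its gene, with the matched cores in capitals. The excerpts are Slc2a1 at chr4:119108669-119108728 (plus strand), Egln3 at chr12:54204084-54204118 (minus strand), Ankrd37 at chr8:45999851-46000100 (minus strand), Pdk1 at chr2:71873131-71873165 (plus strand), Adm at chr7:110627552-110627622 (plus strand), Bnip3 at chr7:138909522-138909638 (minus strand) and Ldha at chr7:46845644-46845789 (plus strand). GENCODE vM21 exons cover 18 of the 60 bases of the Slc2a1 excerpt and 17 of the 250 bases of the Ankrd37 excerpt, and none of the other 5.
Slc2a1: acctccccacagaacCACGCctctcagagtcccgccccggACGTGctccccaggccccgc
Egln3: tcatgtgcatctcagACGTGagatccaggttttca
Ankrd37: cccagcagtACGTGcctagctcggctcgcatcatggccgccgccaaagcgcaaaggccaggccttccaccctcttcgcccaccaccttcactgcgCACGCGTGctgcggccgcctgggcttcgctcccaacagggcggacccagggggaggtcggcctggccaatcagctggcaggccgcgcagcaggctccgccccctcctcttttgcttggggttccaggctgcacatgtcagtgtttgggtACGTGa
Pdk1: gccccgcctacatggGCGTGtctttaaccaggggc
Adm: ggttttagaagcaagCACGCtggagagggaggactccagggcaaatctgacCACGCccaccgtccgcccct
Bnip3: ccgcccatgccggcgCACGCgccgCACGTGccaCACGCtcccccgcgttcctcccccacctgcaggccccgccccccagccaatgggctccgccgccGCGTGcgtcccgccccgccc
Ldha: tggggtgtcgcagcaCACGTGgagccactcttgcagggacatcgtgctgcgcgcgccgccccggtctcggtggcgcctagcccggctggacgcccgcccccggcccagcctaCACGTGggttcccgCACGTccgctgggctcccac

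Slc2a1 carried a GCGTG core on the minus strand and an ACGTG core on the plus strand, 61 and 36 bases before the start. Egln3 had 1 core, 229 bases before it. In Ankrd37 an ACGTG core lay 241 bases and another 6 bases before the start, and the run CACGCGTG between them holds GCGTG on both strands, overlapping by 2 bases. Pdk1 had a single GCGTG core at 78 bases, and Adm had GCGTG cores on the minus strand at 90 and 54 bases. Bnip3 held CACGTG and 3 copies of GCGTG. Ldha held CACGTG at both ends of its excerpt and 1 further ACGTG core on the minus strand. The map of matches places each of them by its distance from the start.

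**Figure D1:**
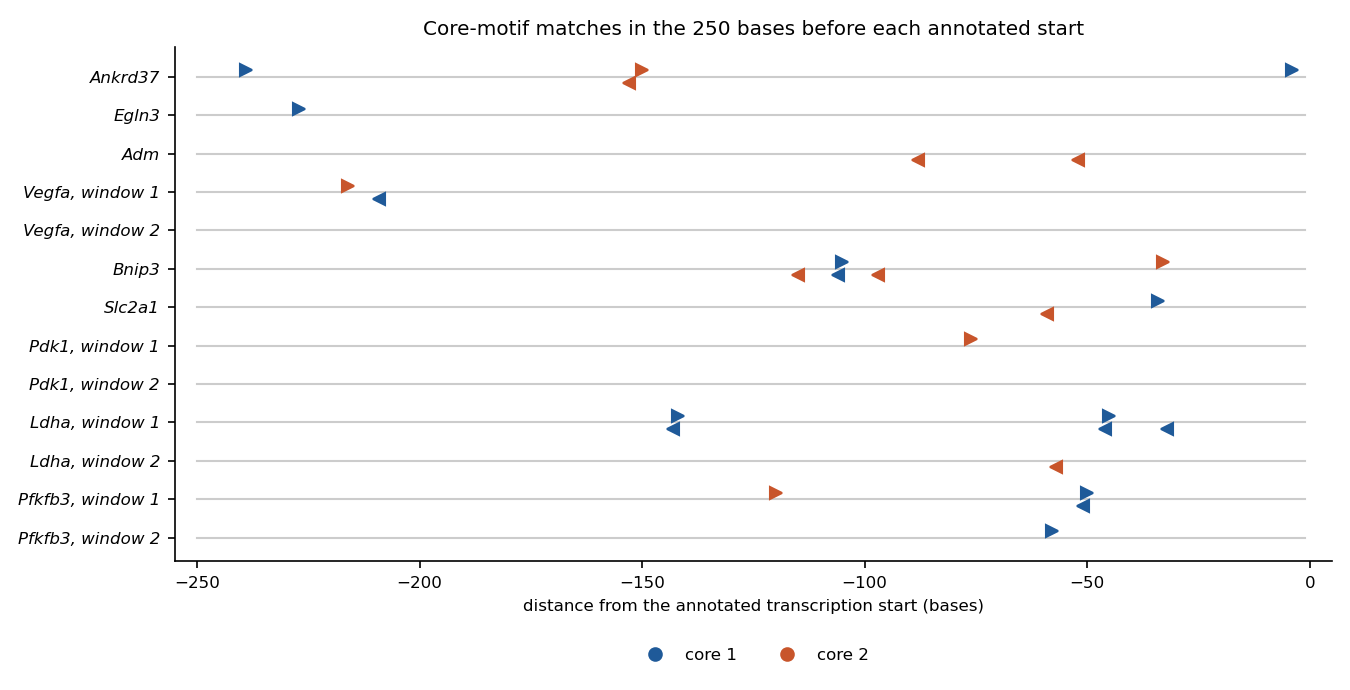
Position of each core match in the 250 bases before the annotated start (x axis, bases) for the 13 windows of 9 genes (rows, numbered by position along the chromosome). Core 1 is ACGTG (blue) and core 2 is GCGTG (orange), and triangles point right for the gene's own strand and left for the other. Of the 13 windows, 11 hold a match.

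The tables hold FPKM, a fragment count scaled by transcript length and library size. No entry is named LncCPR, so the deleted gene itself could not be read, but the entry 4930500J02Rik on chromosome 2 separated the lines at each day, for example with a mean of 48.1 FPKM in control and 0 in the knockout at day 0. Library sums ran from 294740 to 403675 FPKM, and relative depth, read from the steps of genes listed above 0 in at most 12 libraries, ran from 0.562 (an estimate from 11 of 61 genes) to 1.83 times that of control replicate 1 at day 0. Absolute depth is unknown. Genes above 1 FPKM numbered 11248 to 13183 a library, and the 10 most abundant entries took 11.3% to 30.3% of a library's sum. The 7 pluripotency markers, all but Esrrb of them present at day 0, summed to 2295 to 2357 FPKM in control and 2314 to 2436 FPKM in the knockout. Esrrb was listed at 0 in these 6 libraries and at means of 7.50 and 6.98 FPKM at day 5, and an exact 0 in such tables can be a failed estimate.

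The lines were compared day by day with limma on log2(FPKM + 1), over genes whose mean reached 1 FPKM, and a gene counts as higher or lower in the knockout where its Benjamini-Hochberg adjusted p is under 0.05. On this scale the change of low genes is understated. An exact permutation test of 3 libraries against 3 has 0.1 as its smallest p, which is why this model was used for single genes. Over all genes the median log2 fold change was -0.01, 0.15, 0.13, 0.09, 0.17 and 0.05 in order of day. Control replicate 1 at day 3 and control replicate 3 at day 10 had low scale, with median-of-ratios factors of -0.48 and -0.30 on the log2 scale. Rescaling moved the median of all genes to 0.02 at day 3, 0.00 at day 5 and -0.02 at day 10. Results are therefore also given with the libraries of a day rescaled by such factors, or with each library centred on the median of its genes chromosome by chromosome, wherever a call of the 10 genes changes.

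Leaving Ndrg1 aside, the knockout differed most often from control at day 0, when 5 of 9 genes were lower and 0 were higher: Slc2a1, Egln3, Ankrd37, Pdk1 and Adm. With Ndrg1, a description at this day, the count is 6 of 10. Over all genes tested at day 0, 14.5% were called, 6.49% higher and 8.03% lower. The libraries of the lines did not overlap for 7 of the 10 genes, or 6 of 9 without Ndrg1, against 36.5% of all genes. The median log2 fold change was -0.57 for the 10 genes and -0.39 without Ndrg1, against -0.01 for all genes. The 4 genes that did not pass were Bnip3 (-0.39), Ldha (-0.11), Pfkfb3 (0.02) and Vegfa (0.02). Of 6 immediate early and stress genes tested in the same libraries, which respond to the handling of cells, 3 were lower and 1 was higher, and the list summed to 26.9 to 28.0 FPKM in control and 17.0 to 19.9 FPKM in the knockout. Of 4 neural markers tested, 3 were lower and 0 higher, and the list summed to 21.8 to 22.8 FPKM in control and 13.8 to 14.8 FPKM in the knockout. Cardiomyocyte markers summed to 7.49 to 13.7 and 4.99 to 5.57 FPKM, and endothelial markers to 42.5 to 48.7 and 39.1 to 40.2 FPKM. In each, 1 of 3 tested was lower and 0 higher. Sums of streak markers (2.61 to 2.94 and 1.42 to 2.35) and visceral endoderm markers (1.31 to 2.47 and 0.810 to 1.23) were lower too, with 0 called. Those of primitive blood overlapped. Of 2 RNA quality genes tested, 0 were called, but the list, nearly all of it the mitochondrial mt-Rnr1, summed to 16012 to 17834 FPKM in control and 19564 to 34497 FPKM in the knockout without overlap. Of 6 pluripotency markers tested, 1 was higher and 0 were lower. It was Pou5f1, with means of 505 FPKM in control and 598 FPKM in the knockout without overlap (log2 fold change 0.24, SE 0.051, limma adjusted p = 0.022). The part of handling, RNA quality or stray differentiated cells in the day 0 result was not tested.

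At later days fewer of the 10 genes passed, and in both directions. At day 3, 1 of 8 genes tested was higher (Bnip3) and 0 were lower, where 1.75% of all genes were called, 1.09% higher and 0.668% lower. The lines did not overlap for 3 of the 8, against 17.5% of all genes. Of 3 RNA quality genes tested at day 3, 1 was lower and 0 higher. That list summed to 17453 to 73113 FPKM in control and 14324 to 32718 FPKM in the knockout. Of 2 streak markers tested 1 was lower, of 3 endothelial markers 1 was higher, and in the other marker lists 0 were called. The part of RNA quality or cell types in the day 3 result was not tested. At day 5, leaving Ndrg1 aside, 2 of 8 were higher (Bnip3 and Pdk1) and 1 was lower (Vegfa). Of all genes 10.4% were called, 7.07% higher and 3.32% lower. With Ndrg1, a description at this day, the count is 3 higher and 1 lower of 9. The lines did not overlap for 6 of the 9, or 5 of 8 without Ndrg1, against 33.9% of all genes.

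At day 8, 0 of 10 passed with limma, 1 had an unadjusted p under 0.05 (Slc2a1), and 3.28% of all genes were called, 1.28% higher and 2% lower, with 17.8% at an unadjusted p under 0.05. Slc2a1 was also the 1 gene of 10 without overlap, against 22.7% of all genes. At day 10, 2 of 10 were higher (Slc2a1 and Ldha), against 20.2% of all genes, 15% higher and 5.12% lower, so that share lies at the background. These were also the 2 genes without overlap, against 40.4% of all genes. At day 12, 1 of 10 was higher (Slc2a1), against 6.71% of all genes, 3.22% higher and 3.48% lower, and 4 of 10 did not overlap, against 30%. From day 3 to day 12 the median log2 fold change of those tested was 0.27, 0.23, 0.08, 0.04 and 0.05 in order of day, and at day 5 it was 0.06 without Ndrg1.

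**Figure D2:**
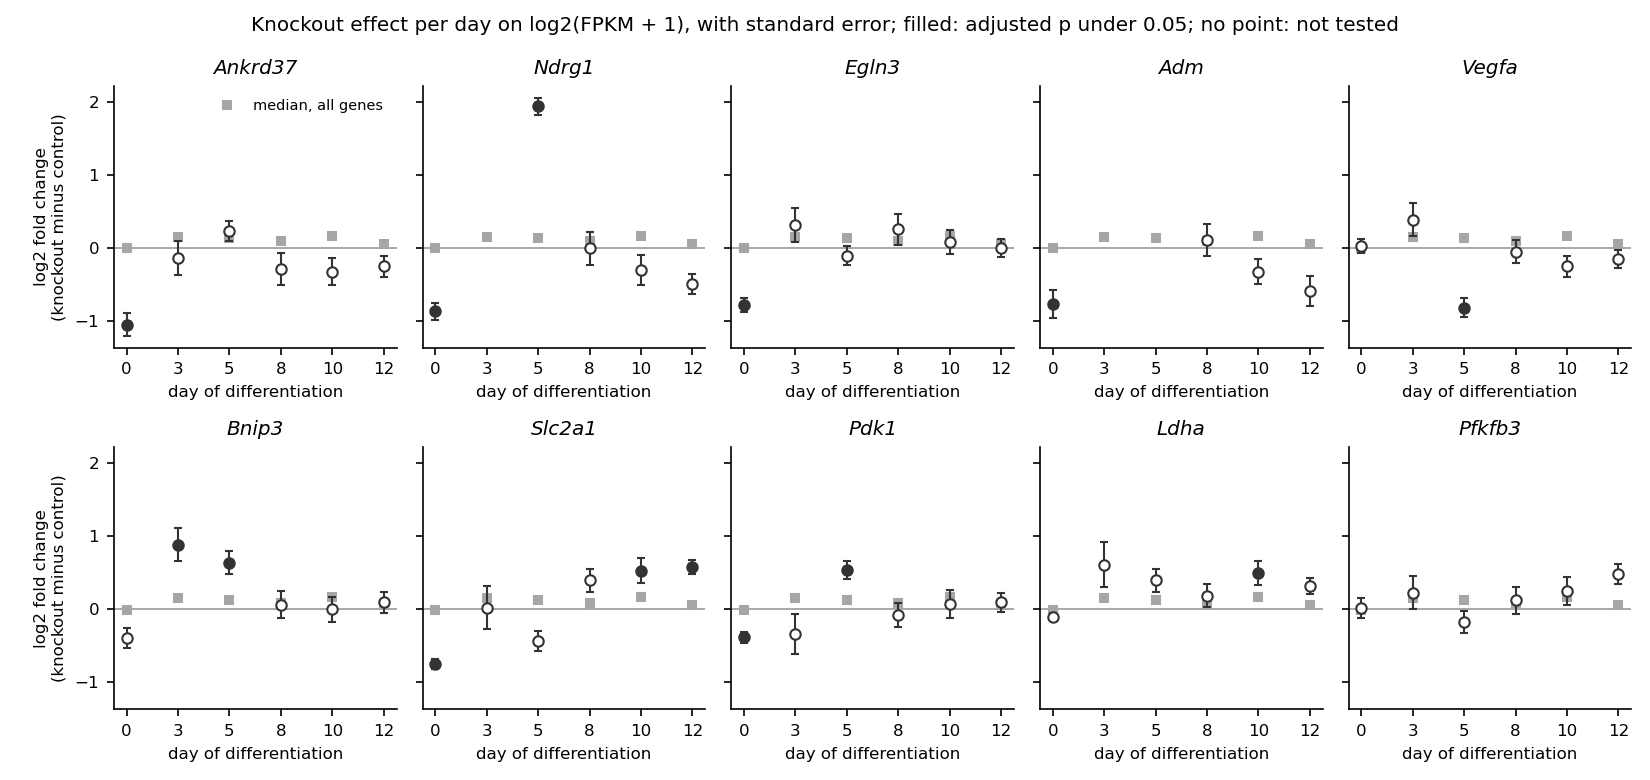
Log2 fold change of knockout over control on log2(FPKM + 1) (y axis) at each day (x axis) for the 10 genes, with bars of 1 standard error and 3 libraries a group. Filled points passed an adjusted p of 0.05, grey squares are the median of all genes tested that day, and a missing point was not tested. Filled points lie below 0 at day 0 in 5 of the 9 genes other than Ndrg1. Ndrg1, a description at days 0 and 5, goes from -0.87 at day 0 to 1.94 at day 5.

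Egln3 (ENSMUSG00000035105.5, chromosome 12) is both an oxygen sensor that marks HIF for decay and a HIF target, which makes it a feedback gene. At day 0 its level was 11.2, 10.9 and 9.31 FPKM in the control libraries and 5.61, 5.25 and 6.05 FPKM in the knockout libraries. Each control library lay above each knockout library, and the knockout mean was 0.539 times that of control (log2 fold change -0.79, SE 0.099, limma adjusted p = 0.0034). The groups overlapped at the other 5 days, where the log2 fold change lay between -0.11 and 0.31 and adjusted p was 0.577 or higher. By day 12 Egln3 reached 21.4, 17.6 and 20 FPKM in control and 20.6, 20.8 and 17.4 FPKM in the knockout.

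Ankrd37 (ENSMUSG00000050914.9, chromosome 8) encodes an ankyrin repeat protein and is known mainly as a HIF target. At day 0 control held 9.44, 10.7 and 12.3 FPKM and the knockout 5.90, 3.74 and 4.57 FPKM. The groups did not overlap (log2 fold change -1.05, SE 0.15, limma adjusted p = 0.0059), the largest fall of the 10 genes at that day on this scale, while the ratio of means was 0.438 for Ankrd37 and 0.408 for Adm. Genes of chromosome 8 as a group lay lower in the knockout at day 0, with a median 0.26 below that of the other chromosomes. This shift was -0.24 at day 3 and -0.006 at day 5. Centred by chromosome, the log2 fold change of Ankrd37 was -0.76 and it was still called. Ankrd37 overlaps Ufsp2 on the opposite strand by 57 bases in GRCm38, whether the counting used strand is not given in the sources used here, and Ufsp2 reached 38.6 FPKM in a library. Antisense entries that overlap Slc2a1 and Ndrg1 reached at most 1.67 and 3.26 FPKM in any library. At days 3 to 12 Ankrd37 was not called and its libraries overlapped, with log2 fold changes from -0.33 to 0.23.

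Ndrg1 (ENSMUSG00000005125.6, chromosome 15) encodes a stress-responsive cytoplasmic protein and is widely used as a marker of low oxygen. At day 0 control held 8.54, 9.12 and 7.28 FPKM and the knockout 3.82, 4.49 and 3.91 FPKM. At day 3 it was low in both lines, at 1.05, 1.24 and 0.260 FPKM in control and 1.19, 0.533 and 0.491 FPKM in the knockout, and was not tested. At day 5 control held 3.84, 4.22 and 4.90 FPKM and the knockout 18.8, 20.4 and 18.8 FPKM. The groups did not overlap at day 0 or at day 5, with the knockout below at the former and above at the latter. The knockout mean was 0.490 times that of control at day 0 (log2 fold change -0.87, SE 0.11) and 4.48 times at day 5 (1.94, SE 0.12). As Ndrg1 was chosen for this change of direction, it is a description.

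Ndrg1 was back in the range of control at day 8, with 7.29, 4.05 and 3.70 FPKM in control and 5.08, 4.07 and 5.32 FPKM in the knockout. At day 12 control held 15.4, 14.1 and 17.9 FPKM and the knockout 12.4, 9.50 and 10.7 FPKM. Here the knockout libraries again lay below, without passing the test (log2 fold change -0.50, SE 0.14, limma adjusted p = 0.058). The call appeared with rescaled libraries (-0.58, adjusted p = 0.035) and with centring (-0.56, adjusted p = 0.045). The knockout mean of day 5, 19.3 FPKM, was the highest of all 12 group means of Ndrg1.

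Vegfa (ENSMUSG00000023951.9, chromosome 17), the main growth factor for blood vessels, gave a pattern of its own. At day 0 control held 29.4, 27.3 and 26.4 FPKM and the knockout 32.6, 27.6 and 24.7 FPKM, so the lines overlapped (log2 fold change 0.02, SE 0.10, limma adjusted p = 0.91). At day 5 control held 16.8, 21.3 and 21.0 FPKM and the knockout 12.1, 10.6 and 9.39 FPKM. Each knockout library then lay below each control library (log2 fold change -0.82, SE 0.13, limma adjusted p = 0.0030), while Ndrg1, Bnip3 and Pdk1 lay above in the same libraries.

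The day 5 fall of Vegfa came with markers of other cells. Kdr, the main Vegfa receptor and a marker of mesoderm and endothelium, held 19, 17.2 and 21.8 FPKM in control and 0.875, 0.893 and 1.01 FPKM in the knockout (log2 fold change -3.39, SE 0.12, limma adjusted p = 9.88e-08). The co-receptor Nrp1 held 13.3, 13.5 and 16.3 FPKM against 1.25, 1.88 and 1.46 FPKM (-2.61, SE 0.135, adjusted p = 1.46e-06). The 6 endothelial markers, Kdr among them, summed to 30.8 to 35.6 FPKM in control and 15.5 to 17.9 FPKM in the knockout, and 1 of 3 tested was lower. That difference lay in Kdr, since the other 5 summed to 11.9 to 13.8 FPKM in control and 14.6 to 16.9 FPKM in the knockout. The 5 primitive streak and mesoderm markers summed to 166 to 231 FPKM in control and 249 to 269 FPKM in the knockout, with 1 higher (T, a streak marker, 0.98) and 1 lower (Mesp1, of early heart mesoderm, -2.90). Of 7 pluripotency markers 4 were higher, and they summed to 439 to 604 FPKM in control and 935 to 1050 FPKM in the knockout. The neural markers summed to 13.8 to 15.3 FPKM in control and 33.5 to 41.1 FPKM in the knockout, with 1 of 1 tested higher. None of these markers was at 0 in all 3 libraries of a line at day 5. Their part in the day 5 results for Vegfa, Ndrg1, Bnip3 and Pdk1 was not tested.

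At days 8 to 12 Vegfa was abundant in both lines and was not called. At day 10 control held 89.6, 89.6 and 71.2 FPKM and the knockout 64.9, 75.0 and 68.7 FPKM (log2 fold change -0.25, SE 0.14, limma adjusted p = 0.21). The lines overlapped only through control replicate 3, the library with the low scale. Vegfa was called lower with rescaled libraries (-0.46, adjusted p = 0.0056), with centring (-0.42, adjusted p = 0.017) and without that library (-0.36, adjusted p = 0.044).

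Adm (ENSMUSG00000030790.7, chromosome 7) encodes adrenomedullin, a secreted peptide that widens vessels. It was low at day 0, at 2.28, 3.49 and 1.71 FPKM in control and 1.22, 0.835 and 1.00 FPKM in the knockout. The knockout libraries lay below (log2 fold change -0.77, SE 0.19, limma adjusted p = 0.037). The call ended without any 1 of the 6 libraries other than control replicate 3 (adjusted p from 0.066 to 0.098), with centring (0.056), without the filter on low values (0.14) and with a replicate block (0.079). At days 3 and 5 Adm was under the filter and not tested. By day 12 its level was 16.8, 13.5 and 21.1 FPKM in control and 14.7, 10.2 and 8.46 FPKM in the knockout, and the lines overlapped (log2 fold change -0.59, SE 0.21, limma adjusted p = 0.13).

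Bnip3 (ENSMUSG00000078566.2, chromosome 7) encodes a mitochondrial membrane protein that marks mitochondria for removal. At day 3 control held 5.60, 6.28 and 5.83 FPKM and the knockout 12.8, 12.0 and 10.5 FPKM. The knockout mean was 2.00 times that of control with no overlap (log2 fold change 0.89, SE 0.23, limma adjusted p = 0.031). It was the highest of the 8 fold changes tested among the 10 genes at that day. The call ended without control replicate 2 or without any 1 knockout library (adjusted p from 0.078 to 0.24), with centring (0.65, adjusted p = 0.061) and without the filter on low values (adjusted p = 0.24).

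At day 5 Bnip3 held 7.67, 6.99 and 10.0 FPKM in control and 12.5, 16.1 and 11.4 FPKM in the knockout, again without overlap (log2 fold change 0.64, SE 0.16, limma adjusted p = 0.026). That call ended with rescaled libraries (0.51, adjusted p = 0.075), with centring (0.53, adjusted p = 0.063), without the filter on low values (adjusted p = 0.14), and without control replicate 1, control replicate 2 or knockout replicate 2 (adjusted p from 0.069 to 0.11). At day 0 the knockout libraries, at 13.7, 13.3 and 16.3 FPKM, lay just below the control libraries, at 23.9, 16.8 and 17.4 FPKM, without passing (-0.39, SE 0.14, limma adjusted p = 0.10). At days 8, 10 and 12 the groups overlapped and the log2 fold changes were between 0.00 and 0.09.

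Slc2a1 (ENSMUSG00000028645.4, chromosome 4) encodes the glucose transporter GLUT1, which brings glucose into the cell. It was lower in the knockout at the start and higher at the end. At day 0 control held 175, 163 and 166 FPKM and the knockout 106, 101 and 92.3 FPKM. The knockout mean was 0.593 times that of control without overlap (log2 fold change -0.75, SE 0.064, limma adjusted p = 0.00075), the lowest adjusted p of the 10 genes at that day. At day 3 control held 112, 177 and 169 FPKM and the knockout 135, 176 and 148 FPKM, so the lines overlapped.

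At day 5 Slc2a1 held 216, 226 and 253 FPKM in control and 192, 173 and 149 FPKM in the knockout. The knockout libraries lay below without passing (log2 fold change -0.43, SE 0.14, limma adjusted p = 0.074). They passed with rescaled libraries (-0.58, adjusted p = 0.0096) and with centring (-0.61, adjusted p = 0.0094). At day 8 the order turned, with 294, 239 and 227 FPKM in control and 350, 342 and 306 FPKM in the knockout, which did not overlap or pass (0.40, SE 0.16, limma adjusted p = 0.23).

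At day 12 Slc2a1 held 229, 230 and 216 FPKM in control and 341, 347 and 321 FPKM in the knockout. The lines lay well apart, with a knockout mean 1.5 times that of control (log2 fold change 0.58, SE 0.098, limma adjusted p = 0.011). Without knockout replicate 2 the adjusted p was 0.060, and without the filter on low values it was 0.059. At day 10 control held 242, 237 and 179 FPKM and the knockout 263, 370 and 317 FPKM (0.53, SE 0.17, limma adjusted p = 0.046). The day 10 call ended without any 1 library other than knockout replicate 1 (adjusted p from 0.052 to 0.20), without the filter (0.20), with rescaled libraries (0.32, adjusted p = 0.12) and with centring (0.28, adjusted p = 0.18).

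Pfkfb3 (ENSMUSG00000026773.10, chromosome 2) makes the small sugar phosphate that turns on phosphofructokinase and so speeds glycolysis. It was not called at any of the 6 days. Its largest difference came at day 12, with 17.1, 17.0 and 21.1 FPKM in control and 30.8, 22.2 and 25.5 FPKM in the knockout. The knockout libraries lay above each control library there without passing (log2 fold change 0.48, SE 0.14, limma adjusted p = 0.074).

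Ldha (ENSMUSG00000063229.7, chromosome 7) encodes the lactate dehydrogenase subunit that turns pyruvate into lactate. It has processed copies in the genome, and how the authors treated fragments shared with them is not given in the sources used here, so its level is uncertain. The lines overlapped at day 0, with 220, 210 and 216 FPKM in control and 211, 196 and 192 FPKM in the knockout (log2 fold change -0.11, SE 0.055, limma adjusted p = 0.21). At day 5 both lines were at their highest, with 306, 379 and 432 FPKM in control and 492, 464 and 500 FPKM in the knockout (0.39, SE 0.16, limma adjusted p = 0.14). The knockout libraries lay above the control libraries at days 3, 5, 10 and 12, and passed at day 10 only.

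At day 10 Ldha held 232, 236 and 174 FPKM in control and 287, 341 and 277 FPKM in the knockout (log2 fold change 0.50, SE 0.16, limma adjusted p = 0.045). The call ended without any 1 library other than control replicate 2 (adjusted p from 0.068 to 0.19), without the filter (0.18) and with rescaled libraries (0.29, adjusted p = 0.067). At day 3 Ldha was called higher with rescaled libraries (0.45, adjusted p = 0.049) and in 1 fit over the 36 libraries (0.61, adjusted p = 0.018), where the limma adjusted p of the day alone was 0.49.

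Pdk1 (ENSMUSG00000006494.5, chromosome 2) encodes pyruvate dehydrogenase kinase 1, which keeps pyruvate out of the mitochondrial cycle. At day 0 control held 69.6, 75.5 and 68.4 FPKM and the knockout 60.0, 49.6 and 53.6 FPKM. The knockout was lower with no overlap (log2 fold change -0.38, SE 0.078, limma adjusted p = 0.019), the smallest fall called at that day among the 10 genes. The call ended without control replicate 2, knockout replicate 2 or knockout replicate 3 (adjusted p from 0.051 to 0.069), without the filter (0.076), with a replicate block (0.059) and in 1 fit over the 36 libraries (0.21).

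At day 5 Pdk1 was higher in the knockout, with 35.7, 36.6 and 43.5 FPKM in control and 57.9, 50.8 and 60.6 FPKM in the knockout (log2 fold change 0.54, SE 0.12, limma adjusted p = 0.019). The libraries did not overlap. Without control replicate 2, knockout replicate 1 or knockout replicate 3 the adjusted p was 0.061 to 0.079, and without the filter it was 0.079. At day 3 control held 76.3, 106 and 101 FPKM and the knockout 67.8, 83.4 and 70.8 FPKM, which overlapped (-0.34, SE 0.27, limma adjusted p = 0.71). Pdk1 was called lower at day 3 with rescaled libraries (-0.49, adjusted p = 0.033) and with centring (-0.51, adjusted p = 0.034).

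Rescaling thus changed how the calls of the later days split into higher and lower, while 0 called genes turned direction. At day 3 the calls among the 10 genes were 1 higher and 0 lower as deposited, 2 higher and 1 lower with rescaled libraries, and 0 higher and 1 lower with centring. At day 5 they were 3 higher and 1 lower as deposited, and 2 higher and 2 lower under both scalings. At day 10 they were 2 higher and 0 lower as deposited, 0 higher and 2 lower with rescaled libraries (Vegfa and Ankrd37, the latter at -0.51, adjusted p = 0.0496), and 1 higher and 1 lower with centring. At day 12 they were 1 higher and 0 lower as deposited, and 1 higher and 1 lower under both scalings. Over all genes the calls at day 10 went from 1946 higher and 663 lower to 1102 higher and 1605 lower with rescaled libraries. At day 0, 6 genes were lower and 0 higher with and without rescaling, and 5 were lower with centring. Ndrg1, a description at days 0 and 5, is in the counts of those days.

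Whether the knockout effect differed between the 6 days was tested directly with a limma F test over the 36 libraries, among genes whose mean reached 1 FPKM at each day. Ndrg1 was left out because of how it was chosen, and Adm fell under the filter, so 8 genes were tested. These 8 were also chosen with earlier results of these data known, so their count is no independent support. Of these, 6 passed: Slc2a1 (adjusted p = 8.32e-05), Vegfa (0.0020), Bnip3 (0.0063), Egln3 (0.017), Ankrd37 (0.041) and Pdk1 (0.048). Ldha (0.20) and Pfkfb3 (0.48) did not. With a pseudocount of 0.1, and without the filter, 4 passed, Ankrd37 and Pdk1 being lost, and Pdk1 was also lost with a replicate block. With rescaled libraries, and with centring, 7 passed, Ldha being added. The chromosomes that lay lower in the knockout changed between the days as well. Against the other chromosomes the median shift at days 0, 3 and 5 was -0.25, -0.26 and 0.01 for chromosome 6. For chromosome 8 it was -0.26, -0.24 and -0.006, and for chromosome 1 -0.05, -0.09 and -0.27. Chromosome 1 was still lower at day 12 (-0.28). The part of this change in the F test was not tested beyond the centring. Over all 10739 genes tested, 11.7% passed.

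Each day has a table of its own, possibly with its own normalization, so levels across days are described and not tested. In control the lowest group mean fell at day 3 for 6 of the 10 genes (Ndrg1, Vegfa, Bnip3, Slc2a1, Ldha and Pfkfb3) and at day 5 for the other 4. For Slc2a1 and Ldha this rested on control replicate 1 of day 3, the library with low scale, at 112 and 141 FPKM. Control replicates 2 and 3 of that day held 177 and 169 FPKM of Slc2a1, above its control mean of 168 FPKM at day 0. For Ldha they held 226 and 242 FPKM, above its control mean of 214 FPKM at day 10. Of 10357 genes whose mean reached 1 FPKM in each of the 12 groups, 30.2% had their lowest control mean at day 3 or 5. In the knockout 7 of the 10 had their lowest mean at day 3 or 5, against 25.2% of those genes. Slc2a1 and Ldha were instead lowest at day 0 in the knockout, and Pdk1 at day 8. The highest mean fell at day 10 or 12 for 6 of the 10 genes in control and 7 in the knockout, against 28.2% and 29.9% of all genes.

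**Figure D3:**
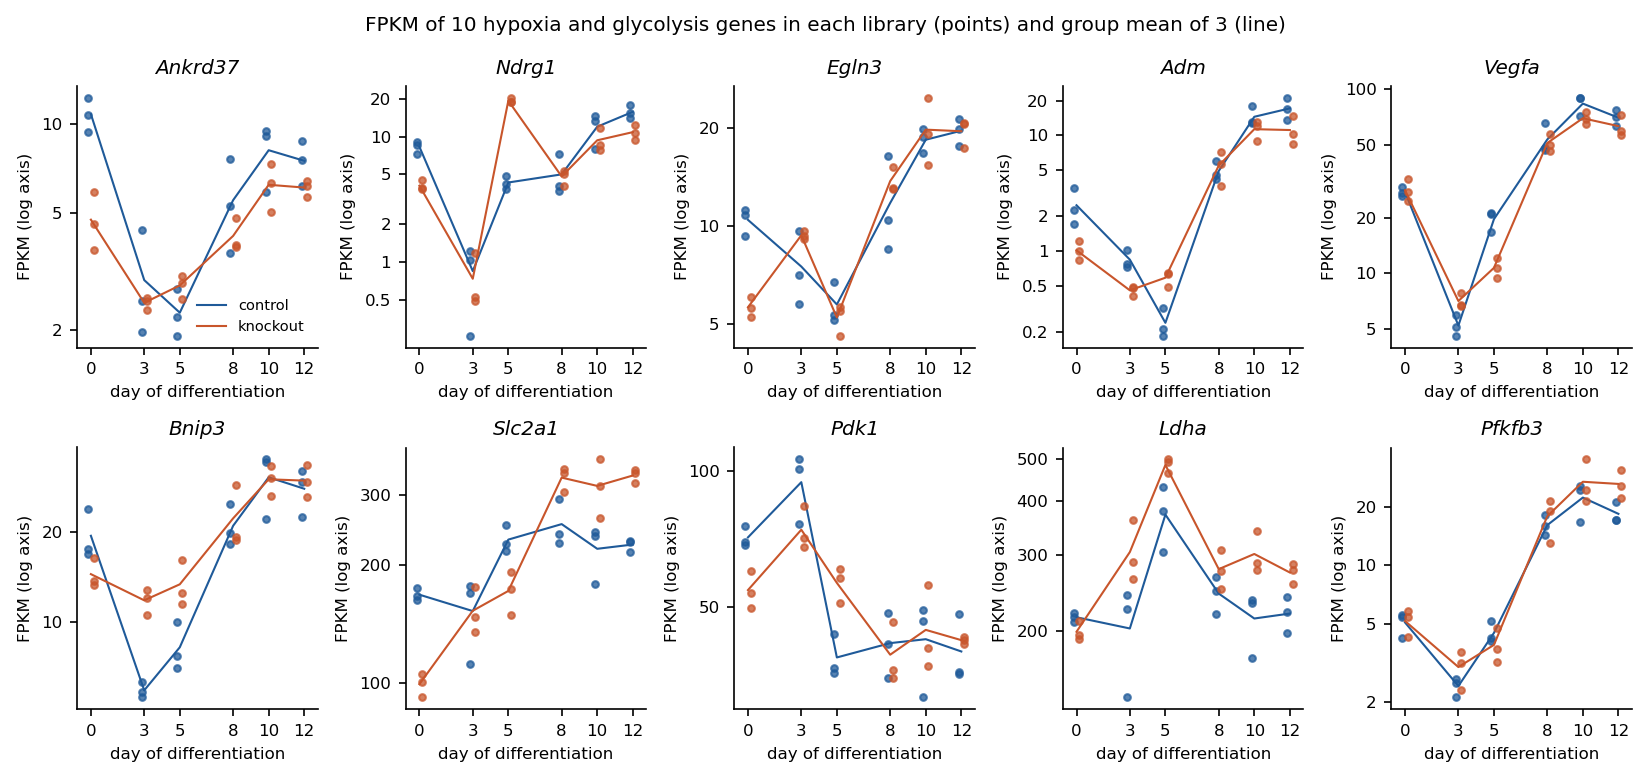
FPKM of each of the 10 genes (log y axis, its range set per gene) against day of differentiation (x axis) in control (blue) and knockout (orange), with 1 point per library and lines through the means of 3. Most genes dip at day 3 or 5 and end high, and Pdk1 peaks at day 3 and Ldha at day 5. The knockout lies below control at day 0 in 5 called genes besides Ndrg1.

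The depth of the dip differed among the genes. In control the day 0 mean was 9.78 times the day 3 mean for Ndrg1, 5.31 times for Vegfa, 3.67 times for Ankrd37 and 3.28 times for Bnip3. It was 1.10 times for Slc2a1 and 1.06 times for Ldha, whose libraries at these days overlapped in control. In the knockout the same ratio was 1.22 for Bnip3, 0.654 for Ldha, 0.652 for Slc2a1 and 0.601 for Egln3, and the last 3 stood higher at day 3 than at day 0 without overlap. Adm had the widest range in control, 71.3-fold between its means at days 5 and 12, and Slc2a1 the narrowest, 1.66-fold between days 3 and 8.

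The order of the control means can be set out gene by gene, with neighbours whose libraries do not overlap named as apart. For Vegfa the order was days 3, 5, 0, 8, 12 and 10, and only days 8, 12 and 10 overlapped with their neighbours. For Adm it was days 5, 3, 0, 8, 10 and 12, with only days 10 and 12 overlapping. For Bnip3 it was days 3, 5, 0, 8, 12 and 10, with days 3, 5 and 0 apart from each other. For Ndrg1 it was days 3, 5, 8, 0, 10 and 12, with only day 3 apart from its neighbour. For Egln3 it was days 5, 3, 0, 8, 10 and 12, with only days 8 and 10 apart. For Ankrd37 it was days 5, 3, 8, 12, 10 and 0, and each neighbour overlapped.

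The enzymes and the transporter were ordered differently. For Pdk1 the control order was days 5, 12, 8, 10, 0 and 3, with day 0 apart from day 10 and day 3 apart from day 0. For Ldha it was days 3, 10, 0, 12, 8 and 5, with only day 5 apart from its neighbour. For Slc2a1 it was days 3, 0, 10, 12, 5 and 8, with only days 0 and 10 apart. For Pfkfb3 it was days 3, 5, 0, 8, 12 and 10, with day 3 apart from day 5 and day 0 apart from day 8.

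In the knockout the order of Slc2a1 was days 0, 3, 5, 10, 8 and 12, with day 0 apart from day 3 and day 5 apart from day 10. Ndrg1 ran through days 3, 0, 8, 10, 12 and 5, with day 3 apart from day 0, day 8 from day 10 and day 12 from day 5. Bnip3 ran through days 3, 5, 0, 8, 12 and 10, the same order as in control, but only days 0 and 8 were apart.

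Across the 12 group means the 10 genes fell into no single pattern. The correlations that follow are a description over group means that share lines and days, with Pearson's r on log2(FPKM + 1). The most alike pairs were Egln3 with Adm (r = 0.94) and Vegfa with Pfkfb3 (0.94), and the least alike was Vegfa with Pdk1 (-0.81). Pdk1 correlated negatively with each of the other 9. Ndrg1 was closest to Bnip3 (0.68) and farthest from Pdk1 (-0.58). Among 10558 genes with a highest group mean of 5 FPKM or more, those most like Ndrg1 were Sgk3 (0.93), B3gnt1 (0.93), Arl3 (0.92), Slc33a1 (0.92) and Cdk16 (0.91). Sgk3 held 6.13 ± 0.281 FPKM in control and 10.8 ± 1.76 FPKM in the knockout at day 5 (SD, n = 3), a description, since these genes were picked for their likeness to Ndrg1.

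The oxygen-sensing machinery was read from its own list. Of 16 genes of the HIF system (the subunits, the hydroxylases, the Vhl complex and co-activators), 2 were higher and 2 lower at day 0, 1 of 15 tested was higher at day 5, and 1 was higher and 2 lower at day 10. Of all genes 14.5%, 10.4% and 20.2% were called at days 0, 5 and 10, so the counts of days 5 and 10 do not exceed the background. At days 3, 8 and 12, 0 were called with limma as deposited. With rescaled libraries 1 was lower at day 3, 1 was higher and 1 lower at day 8, and 0 were higher and 4 lower at day 10. Hif1a was not called at any day, with 59.5 ± 3.43 FPKM in control and 66.8 ± 2.07 FPKM in the knockout at day 0 (SD, n = 3, log2 fold change 0.17, SE 0.060, limma adjusted p = 0.10). At day 0 Vhl, the ubiquitin ligase subunit that destroys HIF, was lower (-0.83, SE 0.11, adjusted p = 0.0047), and so was the main hydroxylase Egln1 (-0.47, SE 0.085, adjusted p = 0.013). Cited2, which competes with HIF for its co-activators, was higher (0.48, adjusted p = 0.013).

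Vhl lies on chromosome 6 and Egln1 on chromosome 8, and genes of both chromosomes as a group lay lower at day 0, by 0.25 and 0.26 at the median against the other chromosomes. With centring Egln1 was no longer called (-0.17, adjusted p = 0.23). At day 10 Epas1, the HIF alpha subunit of endothelium, held 8.53 ± 1.04 FPKM in control and 4.06 ± 0.779 FPKM in the knockout (SD, n = 3, log2 fold change -0.92, SE 0.16, limma adjusted p = 0.0025). The 6 endothelial markers summed to 50.7 to 74.9 FPKM in control and 43.2 to 49.6 FPKM in the knockout at that day, and their part in this was not tested.

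Of 31 other known HIF targets tested at day 0, 9 were lower and 2 higher, where 8.03% of all genes were lower and 6.49% higher. Their median log2 fold change was -0.16, and with centring 6 were lower and 3 higher. The strongest were Bhlhe40, a transcriptional repressor (-1.29, SE 0.13, limma adjusted p = 0.0014), Anxa2, a membrane-binding protein (-1.14, SE 0.11, adjusted p = 0.0012), and the haem-degrading enzyme Hmox1 (-0.78, SE 0.070, adjusted p = 0.00098). Bhlhe40 lies on chromosome 6 and Hmox1 on chromosome 8, and all 3 were still called with centring. Car9, a widely used marker of low oxygen, stayed at means of 0.494 FPKM in control and 0.365 FPKM in the knockout at day 0 and was not tested there.

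At day 5, 5 of 30 other HIF targets were higher and 2 lower, against 7.07% and 3.32% of all genes. Under both scalings 3 were higher and 2 lower. Bhlhe40 was then higher in the knockout, with 3.78, 3.89 and 3.50 FPKM in control and 8.42, 7.85 and 7.78 FPKM in the knockout (log2 fold change 0.93, SE 0.11, limma adjusted p = 0.00040). It was thus lower at day 0 and higher at day 5, as the values of Ndrg1 were. Igfbp3, an insulin-like growth factor binding protein, was higher (1.54, SE 0.16, adjusted p = 0.00014), and the chemokine receptor Cxcr4 was lower (-1.65, SE 0.13, adjusted p = 2.40e-05). At day 10, 3 of 35 were higher and 2 lower, against 15% and 5.12% of all genes. This became 3 higher and 10 lower with rescaled libraries.

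At day 0, 7 of 21 other glycolysis genes were lower and 0 higher, against 8.03% and 6.49% of all genes, with a median log2 fold change of -0.27. The other glucose transporter of these cells, Slc2a3, held 355 ± 23.7 FPKM in control and 272 ± 24.3 FPKM in the knockout (SD, n = 3, -0.38, SE 0.079, limma adjusted p = 0.020), and Eno2 and Ldhb were lower too (-0.53 and -0.41). These 3 genes lie on chromosome 6, none of them was called with centring, and 3 of the 21 were lower and 0 higher then. Hk2, which traps glucose in the cell, was not called at any day (-0.26, adjusted p = 0.077, at day 0).

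At day 5 Slc2a3 was lower (log2 fold change -0.98, SE 0.13, limma adjusted p = 0.00072), as was the lactate transporter Slc16a1 (-1.04, SE 0.13, adjusted p = 0.00071), and Eno1 was higher (0.71, SE 0.13, adjusted p = 0.0062). The list gave 3 higher and 2 lower of 21 at that day, against 7.07% and 3.32% of all genes. At day 10, 6 of 21 were higher and 1 lower, against 15% and 5.12% of all genes. They included Pkm2, pyruvate kinase (0.72, SE 0.18, adjusted p = 0.017), and Slc16a1 (0.67, SE 0.18, adjusted p = 0.023). With rescaled libraries the split was 2 higher and 3 lower, and with centring 4 higher and 3 lower.

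At day 12, 4 of 21 glycolysis genes were higher and 2 lower as deposited, against 3.22% and 3.48% of all genes. The split was 3 higher and 2 lower with rescaled libraries, and 4 higher and 1 lower with centring. Slc2a3 held 277 ± 18.3 FPKM in control and 439 ± 33.4 FPKM in the knockout (SD, n = 3, log2 fold change 0.66, SE 0.11, limma adjusted p = 0.011), and Eno3 was higher as well (0.64, SE 0.14, adjusted p = 0.028). As deposited, both glucose transporters, Slc2a1 and Slc2a3, were thus lower at day 0 and higher at days 10 and 12. Pgam2, a phosphoglycerate mutase of muscle, was lower at days 8, 10 and 12 (-1.44, -1.07 and -0.87, with adjusted p of 0.0019, 0.00096 and 0.012).

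Markers of heart muscle differed between the lines at those days. Of 7 cardiomyocyte markers, 0 were higher and 5 lower at day 8, 1 was higher and 6 were lower at day 10, and 0 were higher and 6 lower at day 12. They summed to 909 to 1035 FPKM in control and 154 to 198 FPKM in the knockout at day 8, to 885 to 909 and 183 to 319 FPKM at day 10, and to 652 to 738 and 247 to 297 FPKM at day 12. At day 10, 5 of 5 visceral endoderm markers were lower, with sums of 498 to 843 FPKM in control and 233 to 283 FPKM in the knockout. The 1 cardiomyocyte marker called higher at day 10 was at 0 in the 3 control libraries, and such an exact 0 can be a failed estimate. Of the 7 pluripotency markers, 7 were higher at day 10, with sums of 59.4 to 99.9 FPKM in control and 179 to 213 FPKM in the knockout. The part of these cell types in the day 8 to 12 values of Slc2a1, Slc2a3, Ldha, Pgam2 and the Vegfa receptors was not tested.

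Gapdh and Pgk1, glycolytic enzymes that cells express strongly, were listed at means of 2.44 to 6.53 FPKM and 3.84 to 10.9 FPKM. Both have many processed copies, so their levels and their differences are uncertain. Gapdh was called higher at day 10 (log2 fold change 0.55, SE 0.16, limma adjusted p = 0.031) and Pgk1 at no day.

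Among 18 genes of pyruvate entry and the mitochondrial cycle, 4 were lower and 1 higher at day 0, against 8.03% and 6.49% of all genes. With centring 2 were lower and 1 higher. Ogdh, a subunit of the oxoglutarate dehydrogenase complex, was lower (-0.40, SE 0.058, limma adjusted p = 0.0061). At days 3, 5 and 8, 0 were called in either direction with limma, and at days 10 and 12 1 was lower. Pdk4, a kinase with the same substrate as Pdk1, was tested at days 0, 10 and 12 and called at none of them (log2 fold change -0.20, adjusted p = 0.41, at day 0).

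Relatives and receptors of the 10 genes formed the last list, to be read beside the shares of all genes given above for each day. At day 0, 5 of 24 were lower and 0 higher, and at day 3, 1 of 21 was lower and 0 higher, with 4 lower on rescaling and 0 with centring. Day 5 had 4 of 24 lower and 2 higher, and day 8 had 4 of 27 lower and 0 higher. The count was largest at day 10, with 10 of 27 lower and 1 higher, and day 12 gave 6 of 28 lower and 2 higher. Among the receptors of Vegfa, Kdr was lower at days 5, 8 and 10 and Nrp1 at days 5, 8, 10 and 12. At day 8 Nrp1 held 42.5 ± 6.36 FPKM in control and 17.5 ± 1.43 FPKM in the knockout (SD, n = 3, log2 fold change -1.22, SE 0.15, limma adjusted p = 0.0015). Of 6 endothelial markers, 4 were lower at day 8, with sums of 91.4 to 94.5 FPKM in control and 53.1 to 60.3 FPKM in the knockout, and 2 were lower at day 12, with sums of 57.4 to 64.8 and 40.7 to 47.1 FPKM. The ligand Vegfa was not called at days 8 to 12 as deposited. Figf, a ligand of a related receptor, was lower at day 12 (-1.40, SE 0.16, adjusted p = 0.0017).

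Of the Ndrg1 relatives, Ndrg2 was higher at day 5, with 4.19 ± 0.985 FPKM in control and 8.93 ± 0.606 FPKM in the knockout (SD, n = 3, log2 fold change 0.95, SE 0.148, limma adjusted p = 0.0025), and lower at days 8, 10 and 12 (log2 fold changes -0.78, -0.69 and -0.80, limma adjusted p of 0.026, 0.0063 and 0.037). Slc2a4, the insulin-responsive glucose transporter of muscle and fat, held 17.6 ± 3.50 FPKM in control and 6.85 ± 1.45 FPKM in the knockout at day 10 (SD, n = 3, -1.24, SE 0.17, adjusted p = 0.00048). Slc2a1 and Slc2a3 were higher in the same libraries as deposited.

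**Figure D4:**
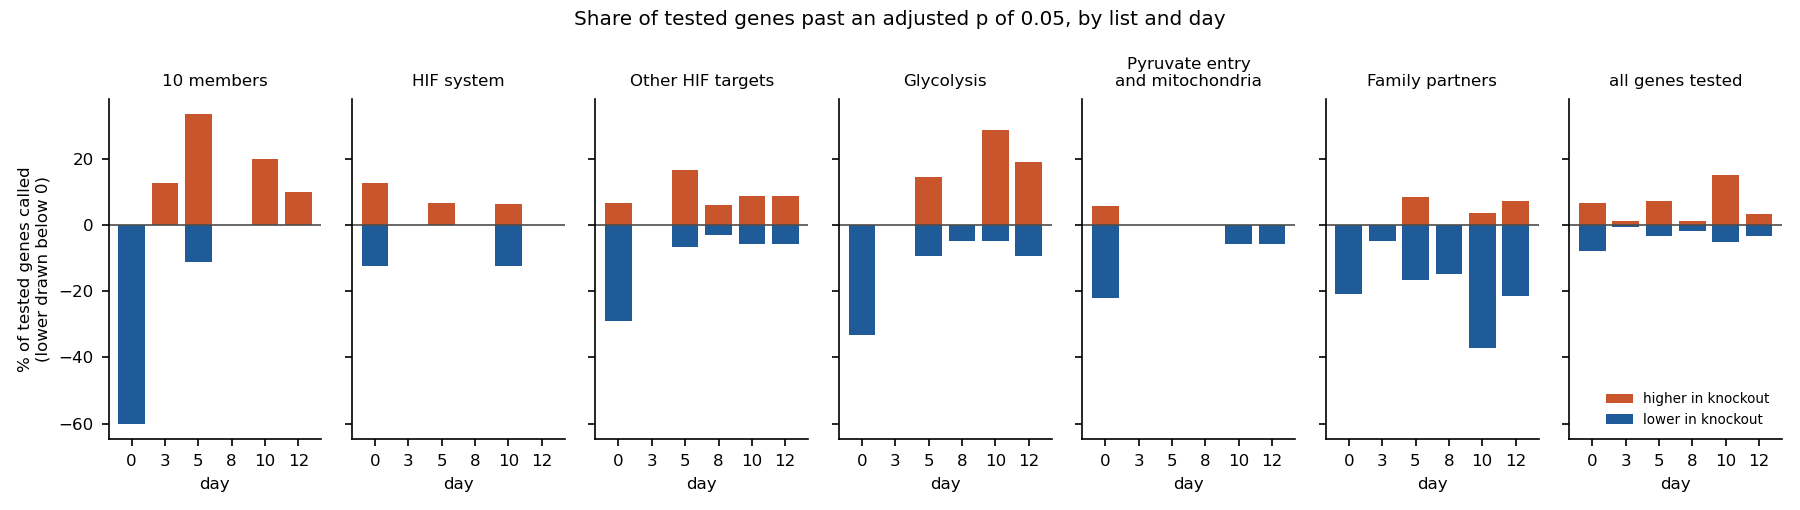
Percent of tested genes called higher (orange, above 0) or lower (blue, drawn below 0) in the knockout, by day (x axis), for the 10 genes, 5 lists of related genes and all genes tested, with values as deposited. The bars of the 10 genes include Ndrg1, a description at days 0 and 5. At day 0, 5 of the 9 genes other than Ndrg1 and 7 of 21 glycolysis genes were lower, against 8.03% of all genes.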

How the data were processed

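Total RNA from AB2.2 cells and embryoid bodies was sequenced in 36 libraries. The deposited values are FPKM made by the authors, in 6 tables of 1 day each, and the submitters' processing notes name TopHat, Cufflinks and the build mm9, with no versions or settings. Whether the tables were normalized together is not given in the sources used here. FPKM divides by the library total, so an abundant transcript in 1 library lowers its other values, and no count of reads can be read from it.

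Each day was fitted with limma 3.58.1 in R 4.3.3 (lmFit, eBayes with a trend) on log2(FPKM + 1), for genes whose mean over the 6 libraries reached 1 FPKM, two-sided, with Benjamini-Hochberg adjustment over all genes tested and a threshold of 0.05. Residual degrees of freedom were 4 a day. The fit was tested on simulated data with 200 changed genes. The F test between days used the 36 libraries in 12 groups. Alternatives were a pseudocount of 0.1 FPKM, no filter on low values, rescaling by median-of-ratios factors over genes with 5 FPKM or more in each library of the day, centring by chromosome, 1 fit over the 36 libraries, a replicate block, and leaving out each library.

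The members and the lists were chosen with earlier results of these data known, so no count over them is independent support. Named were the 10 members; up to 3 genes per list and day, those called with the largest change and no overlap; a panel of 12 genes at any value; and the 5 genes most like Ndrg1. Esrrb, Pou5f1, 4930500J02Rik and the later days of Ndrg2 and Nrp1 were named after their values were seen. Genes were matched to GRCm38 chromosomes by Ensembl identifier (32616 of 37561 entries). Promoters came from RefSeq, GRCm38.p6. Python 3.11.15 with numpy 2.4.6, pandas 2.3.3 and matplotlib 3.10.9 served for tables and plots.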

Additional observations from a re-analysis of the deposited data

Results flagged for a closer look

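The difference between knockout and control itself differed between days for 6 of the 8 genes tested by limma's F test over the 36 libraries. Over all 10739 genes tested, 11.7% passed. The 8 genes were chosen with earlier results of these data known, so their count is no independent support. The adjusted p was 8.32e-05 for Slc2a1, which was lower in the knockout at day 0 and higher at days 10 and 12. The day 10 call of Slc2a1 ended under both scalings and without any 1 library other than knockout replicate 1. Its day 12 call ended without knockout replicate 2. The adjusted p was 0.002 for Vegfa, lower at day 5 as deposited, and at day 10 also with rescaled libraries, with centring or without control replicate 3. It was 0.00626 for Bnip3, higher at days 3 and 5, both calls ending with centring and without certain single libraries. It was 0.0172 for Egln3 and 0.0413 for Ankrd37, both lower at day 0 alone as deposited, with Ankrd37 also lower at day 10 with rescaled libraries. It was 0.0476 for Pdk1, lower at day 0 and higher at day 5, both calls ending without certain single libraries. Ankrd37 and Pdk1 did not pass with a pseudocount of 0.1 or without the filter on low values, Pdk1 did not with a replicate block, and Ldha passed under both scalings. Groups of 3 libraries are too small for a check of single outlying libraries.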

How the results depend on the processing

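Leaving aside Ndrg1 at days 0 and 5, 12 of 55 fold changes tested among the 10 genes were called, 0 of these reversed in any of the 12 settings, and 4 were called in each of them: Ankrd37, Egln3 and Slc2a1 at day 0, and Vegfa at day 5. Over all genes the share called ran from 1.75% at day 3 to 20.2% at day 10. Among the 10 genes the count called was 1 at day 3. It became 0 without the filter on low values, 3 with rescaled libraries and 2 in 1 fit over the 36 libraries. It was 4 at day 5 and became 2 without the filter, and 2 at day 10 and became 0. It was 1 at day 12 and became 0 without the filter, 2 with rescaled libraries and 2 with centring. Without the filter the adjustment covers more genes (25700 against 12197 at day 0), and for the others the cause was not tested. Leaving out 1 library gave 4 to 6 calls at day 0, 2 to 4 at day 5, and 0 to 1 at days 3, 10 and 12. In each setting the counts of days 0 and 5 include Ndrg1, which is a description there. Among fold changes that were not called, Ndrg1 at day 8 became 0.0026 with a pseudocount of 0.1. With rescaled libraries, Egln3 at day 10 became -0.12, Bnip3 at day 8 -0.057 and at day 10 -0.20, Slc2a1 at day 3 -0.13 and Pdk1 at day 10 -0.14. With centring, Egln3 at day 10 became -0.091, Vegfa at day 0 -0.023, Bnip3 at day 10 -0.13, Slc2a1 at day 3 -0.14 and Pdk1 at day 10 -0.12. Leaving out 1 library moved the value from -0.32 to 0.10 for Ankrd37 at day 3, -0.16 to 0.25 for Ndrg1 at day 8, -0.091 to 0.24 and -0.077 to 0.074 for Egln3 at days 10 and 12, and -0.083 to 0.32 for Adm at day 8. The range was -0.081 to 0.11 and -0.14 to 0.098 for Vegfa at days 0 and 8, -0.13 to 0.19, -0.21 to 0.11 and -0.050 to 0.20 for Bnip3 at days 8, 10 and 12, and -0.19 to 0.14 for Slc2a1 at day 3. It was -0.21 to 0.034 and -0.12 to 0.19 for Pdk1 at days 8 and 10, and -0.086 to 0.13 and -0.019 to 0.32 for Pfkfb3 at days 0 and 8. Deviations of libraries with the same replicate number correlated weakly (r from -0.12 to 0.27, median 0.030). These r were all positive at day 5 and all negative at day 12. Groups of 3 libraries are too small to settle whether the numbers pair them. With a replicate block the counts called were 4, 1, 4, 0, 2 and 1 in order of day, ending the calls of Adm and Pdk1 at day 0, and 5 genes passed the F test, against 6 without it and 4 to 7 over the other settings. The scalings of the related lists were chosen after seeing the data. Absolute depth is unknown, so no floor can be given for the low values of Adm at days 3 and 5 and of Ndrg1 at day 3.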

Other observations

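The markers of primitive blood, a lineage that arises beside the first vessels, were low in the knockout at day 8. The 5 markers summed to 28.0 to 33.4 FPKM in control and 1.26 to 1.77 FPKM in the knockout, and of the 2 tested, 2 were lower with limma. At day 10 the lines overlapped, with sums of 34.6 to 87.5 FPKM in control and 13.3 to 49.6 FPKM in the knockout and 2 of 3 lower. At day 12 they summed to 34.5 to 60.2 FPKM in control and 15.2 to 17.7 FPKM in the knockout, with 2 of 3 lower. Among the 10 hypoxia and glycolysis genes, 0 were called at day 8 in the same libraries.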
